A study of Mus musculus with 27 samples.

Results

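Gene expression of the whole fetal brain was set side by side for AKR/J and Cav1-null mice in the late phase of brain development, from gestational day (d) 15 to d17. The comparison used 12 of the 27 libraries of the series, all from female fetuses, with 3 libraries in each of the 4 groups (AKR/J d15, AKR/J d17, Cav1-null d15 and Cav1-null d17). No group received a treatment. AKR/J is an inbred strain prone to leukemia. The Cav1-null strain, B6.Cg-Cav1tm1Mls/J, carries a targeted deletion of Cav1 on a C57BL/6J background. The loss of Cav1 and the rest of the genetic background that separates it from AKR/J cannot be told apart in this design. For each gene, the change from d15 to d17 in Cav1-null was subtracted from that in AKR/J, and this difference in log2 fold change was tested as the interaction of strain and day with edgeR's quasi-likelihood test. A positive difference is a gene that changed more upward, or less downward, in AKR/J. The question was which genes took a different late course in these short-lived strains.

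In this window of mouse gestation, radial glia, the stem cells that line the ventricles of the brain, leave the cell cycle in growing numbers and give rise to neurons of the upper cortical layers. The neurons that are already born extend axons, and they make the receptors and release machinery of synapses. Blood vessels grow into the tissue, and red blood cells in them turn from embryonic to adult globins. Whole-brain RNA holds all of these cells together, so that fewer cells of a type and less RNA per cell cannot be told apart.

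The 12 libraries held 26363697 to 30160663 reads on genes, and their total mitochondrial share was 2.26% to 4.67%. Levels are in CPM, which are read counts scaled to the size of each library with TMM factors. All 11 marker genes of brain cells were found in every library, from Tubb3 (693 to 1240 CPM) to Nes (34 to 212 CPM). Cav1, which lies on chromosome 6 from 17306140 to 17341451 (GRCm39), was at 16 to 36.8 CPM in the 6 AKR/J libraries, whereas the 6 Cav1-null libraries held 0 to 0.546 CPM, as labelled. AKR/J d15 replicate 2 stood apart from the other libraries, with a summed level of 2370 CPM for markers of connective tissue and cartilage against 255 to 553 CPM in the other 11, and with more RNA of skeletal muscle (259 against 36.1 to 79.7 CPM) and of epidermis and eye (347 against 35.1 to 83.2 CPM).

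Of 21663 genes tested, 462 (2.13%) differed in their late change between AKR/J and Cav1-null when adjusted p-values (Benjamini-Hochberg) under 0.05 were called. The change was higher in AKR/J for 320 genes (1.48%) and lower for 142 genes (0.655%). The smallest adjusted p was 0.013, and 4505 genes had an unadjusted p under 0.05. Most of the differences were moderate, with a median of 0.73 on the log2 scale among the higher genes and -0.82 among the lower genes, and 115 genes had an absolute difference of at least 1. This count rested on single libraries. It was 0 without Cav1-null d15 replicate 3 (3716 genes with an unadjusted p under 0.05), 16 without Cav1-null d15 replicate 2, 53 without Cav1-null d15 replicate 1, 16 and 20 without AKR/J d17 replicates 3 and 2, and 36 and 90 without Cav1-null d17 replicates 2 and 3. It was 305, 623 and 1059 without AKR/J d15 replicates 3, 2 and 1, 476 without Cav1-null d17 replicate 1, and 1130 without AKR/J d17 replicate 1. All 462 genes kept the direction of their difference in each of these 12 fits, which could hardly fail for genes selected by this difference in the same libraries. DESeq2's Wald test called 1825 genes, while 1 model of all 27 libraries called 0, with 1599 genes at an unadjusted p under 0.05.

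In the same fit, 2958 genes (13.7%) rose and 3049 (14.1%) fell from d15 to d17 in AKR/J, and 2197 (10.1%) rose and 2107 (9.73%) fell in Cav1-null. Among the 320 genes with a higher change in AKR/J, 121 rose in AKR/J and did not pass the test in Cav1-null, 113 fell in Cav1-null and did not pass in AKR/J, 52 rose in AKR/J and fell in Cav1-null, and 33 rose in both strains. Among the 142 genes with a lower change in AKR/J, 87 fell in AKR/J and did not pass the test in Cav1-null, 33 rose in Cav1-null and did not pass in AKR/J, 12 fell in AKR/J and rose in Cav1-null, and 8 fell in both strains. The late changes of AKR/J and Cav1-null in the plot of both strains show the called genes on either side of the line of equal change.

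**Figure D1:**
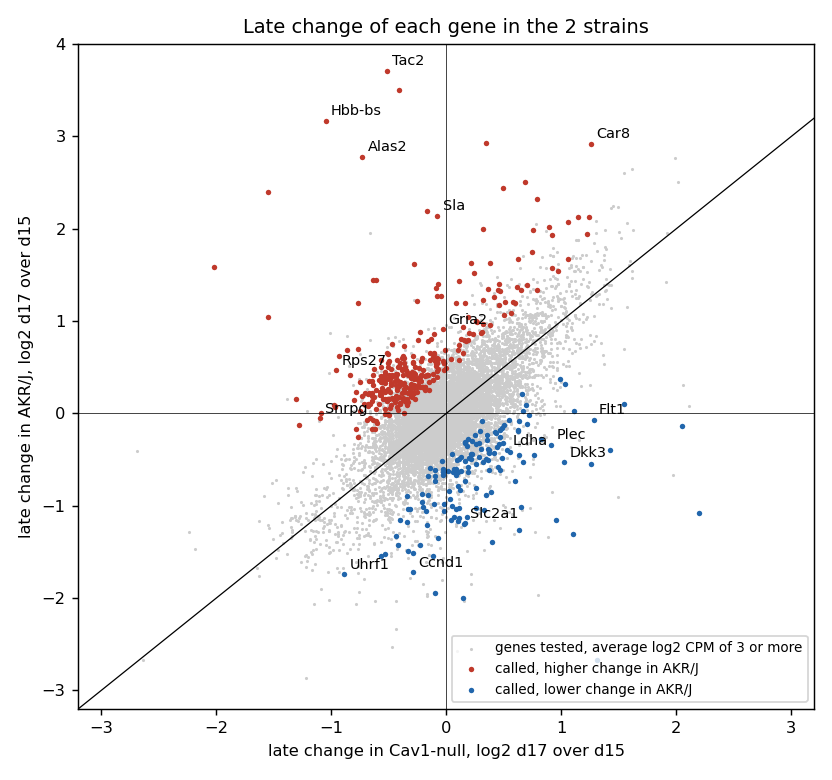
Log2 change from d15 to d17 in Cav1-null (horizontal axis) and in AKR/J (vertical axis), in grey for tested genes with an average log2 CPM of 3 or more and in colour for the 462 genes called in the interaction at any level. The 320 genes in red lie above the line of equal change and the 142 genes in blue lie below it.

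The gap between the strains on each day was set beside the difference in late change for the genes called. AKR/J was below Cav1-null on d15 in 314 of the 320 genes with a higher change and above it on d17 in 261 of them, by the group means. Of the 142 genes with a lower change, AKR/J was above Cav1-null on d15 in 141 and below it on d17 in 111. On the log2(mean CPM + 0.5) scale, the median gap of the higher genes went from -0.45 on d15 to 0.25 on d17, and that of the lower genes from 0.63 to -0.19. The gap was the larger on d15 in 216 of the 320 higher genes (67.5%) and in 117 of the 142 lower genes (82.4%), beside 60% of all genes tested. The share of the higher genes was near that of all genes. These gaps come from the same libraries as the test, and a called difference favours opposite gaps on the 2 days, so they are a description of the genes called. The strains were compared on equal gestational days. The median gap of the mitosis genes was 0.65 on d15 and 0.46 on d17, and that of the radial glia genes was 0.66 and 0.22. The part of a difference in developmental stage between the strains was not tested.

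**Figure D2:**
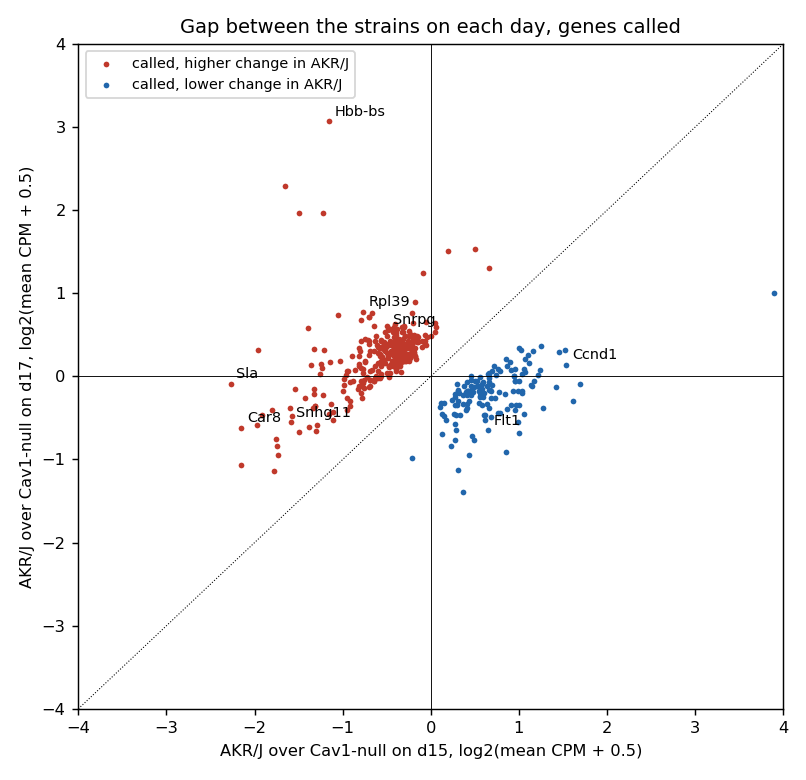
Gap between AKR/J and Cav1-null on d15 (horizontal axis) and on d17 (vertical axis) for the 462 genes called, as the log2 ratio of the group means with 0.5 CPM added. Genes with a higher change in AKR/J (red) lie to the left of 0 on d15 in 314 of 320 genes, and genes with a lower change (blue) lie to the right in 141 of 142.

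Above a mean log2 CPM of 3, the largest differences were those of adult globin genes and Alas2, genes of red blood cells. Hbb-bs, an adult beta globin (chromosome 7, 103475730 to 103482989), was at 703, 1170 and 689 CPM in AKR/J on d15 and at 6410, 2480 and 14100 CPM on d17. In Cav1-null, Hbb-bs was at 1630, 2060 and 2000 CPM on d15 and at 1520, 312 and 904 CPM on d17. All 3 AKR/J libraries of d17 were above those of d15, while all 3 Cav1-null libraries of d17 were below those of d15. The difference in late change was 4.22 (SE 0.78, adjusted p = 0.0239), from a rise of 3.17 in AKR/J and a value of -1.05 in Cav1-null that did not pass the test. The second adult beta globin, Hbb-bt, had a difference of 3.95 (SE 0.76). Alas2, the first enzyme of heme synthesis in red cells, was at 13.9 to 24.4 CPM in AKR/J on d15 and at 111, 49.3 and 211 CPM on d17, against 45.8 to 57.1 CPM and 49.8, 14.1 and 30 CPM in Cav1-null (difference 3.51, SE 0.64, adjusted p = 0.0239).

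The erythroid list had 4 called genes of 16 tested, all with a higher change in AKR/J (1.48% of all genes tested were higher), and the list's median difference was 1.42, beside -0.02 over all genes. With 1 library left out it held 0 to 5 called genes, and 0 without AKR/J d17 replicate 3, any 1 of the Cav1-null libraries of d15, or Cav1-null d17 replicate 2 or 3. The median was then 0.99 to 1.61. With the replicate block, 1 gene of the list was called. The members that did not pass include Klf1 (0.32), a transcription factor of the red cell lineage, and the embryonic globins Hbb-y (1.21), Hbb-bh1 (2.41) and Hba-x (1.16). Hbb-y, whose values were looked at after the others, fell in both strains, from 774, 987 and 1650 CPM to 38.1, 8.34 and 47.7 CPM in AKR/J and from 35.2, 49.1 and 43.3 CPM to 0.819, 0.291 and 0.41 CPM in Cav1-null. On either day AKR/J thus held more Hbb-y RNA than Cav1-null. The alpha globin gene Hba-a2 was at 0.154 to 1.24 CPM in the AKR/J libraries and at 76.9 to 409 CPM in the Cav1-null libraries. On d15 the strains overlapped in Hba-a1, with AKR/J at 445 to 692 CPM and Cav1-null at 452 to 556 CPM, and on d17 they did not, with AKR/J at 822 to 3410 CPM and Cav1-null at 123 to 496 CPM (difference 2.61, SE 0.65, adjusted p = 0.0517). Hba-a1 and Hba-a2 are near-identical copies, as are Hbb-bs and Hbb-bt, and how reads with several matches were counted is not given in the sources used here. The summed level of the erythroid list was 2140 to 3230 CPM in AKR/J on d15, 10100, 3700 and 19800 CPM on d17, 3110 to 3860 CPM in Cav1-null on d15 and 2750, 614 and 1790 CPM on d17. The part of the amount of blood left in a dissected brain in these values was not tested.

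The stretch of 150 bases before the start of Hbb-bs is shown because this gene had the largest difference among genes of this level. It lies at chr7:103827929-103828078 on the minus strand (RefSeq, GRCm38.p6), and the capitals mark CCACACCC, a form of the CACCC box of beta globin promoters.
Hbb-bs: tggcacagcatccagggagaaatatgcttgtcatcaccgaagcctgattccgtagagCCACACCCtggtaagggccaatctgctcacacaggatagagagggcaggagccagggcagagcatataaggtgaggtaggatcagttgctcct
These letters, on either strand, were in the same stretch of 690 of 27025 genes (2.55%) and of 1 of the 15 genes of the erythroid list that were matched.

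Of 31 genes tested in the list of the hypoxia response and glycolysis, 7 had a lower change in AKR/J (0.655% of all genes tested were lower) and 0 a higher one, and the median difference was -0.66 (-0.02 over all genes). With 1 library left out, 0 to 12 were lower, and 0 without AKR/J d17 replicate 2 or 3 or Cav1-null d15 replicate 2 or 3. With the replicate block, 1 was lower. The called members were Slc2a1, the glucose transporter of the blood-brain barrier, and the glycolytic enzymes Gpi1 (-0.71), Aldoa (-0.74), Tpi1 (-0.74), Pgk1, Eno1 and Ldha. In the whole list, 7 genes rose and 11 fell in AKR/J (13.7% and 14.1% over all genes), while 16 rose and 0 fell in Cav1-null (10.1% and 9.73%).

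Ldha, which turns pyruvate into lactate, was at 194, 220 and 218 CPM on d15 and at 173, 149 and 158 CPM on d17 in AKR/J. In Cav1-null it was at 151, 143 and 128 CPM on d15 and at 181, 235 and 194 CPM on d17. The libraries of d15 and d17 did not overlap in either strain, and their order was opposite (difference -0.93, SE 0.14, adjusted p = 0.0154). Eno1 showed the same course, with a fall of 0.61 on the log2 scale in AKR/J and a rise of 0.47 in Cav1-null (difference -1.08, SE 0.21). Slc2a1 (chromosome 4, 118965908 to 118996365) was at 31.1, 32.5 and 44.7 CPM in AKR/J on d15, and the other 9 libraries were at 12.8 to 26.5 CPM. Its difference was -1.35 (SE 0.27, adjusted p = 0.028), with a fall in AKR/J and a value of 0.16 in Cav1-null that did not pass. Pgk1, the first ATP-yielding enzyme of glycolysis, went from 135, 140 and 146 CPM to 99.3, 84.7 and 86.2 CPM in AKR/J, and was at 80.2 to 119 CPM in Cav1-null on both days (difference -0.83, SE 0.15).

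The 150 bases before the start of Ldha, Pgk1 and Slc2a1 are shown as examples of called genes that hold ACGTG, the core motif of the hypoxia-inducible factor, of which they are textbook targets. They were chosen for holding it. Of the 7 called genes, Aldoa also held it, and Gpi1, Tpi1 and Eno1 did not. They lie at chr7:46845654-46845803, chrX:106186950-106187099 and chr4:119108595-119108744, all on the plus strand (RefSeq, GRCm38.p6). Capitals mark ACGTG and its reverse complement CACGT, which overlap where CACGTG is written.
Ldha: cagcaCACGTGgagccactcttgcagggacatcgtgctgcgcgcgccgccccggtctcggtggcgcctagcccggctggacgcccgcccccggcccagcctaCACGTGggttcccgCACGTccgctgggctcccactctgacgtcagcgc
Pgk1: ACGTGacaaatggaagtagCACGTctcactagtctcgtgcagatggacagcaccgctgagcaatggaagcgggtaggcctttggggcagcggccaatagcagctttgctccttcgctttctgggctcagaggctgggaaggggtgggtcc
Slc2a1: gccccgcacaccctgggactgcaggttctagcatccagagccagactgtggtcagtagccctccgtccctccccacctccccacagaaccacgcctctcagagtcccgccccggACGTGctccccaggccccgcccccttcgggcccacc
Each CACGTG counts 2 times, once on each strand. Counted so, the motif was found 5 times in the stretch of Ldha, 2 times in that of Pgk1 and 1 time in that of Slc2a1. It was in at least 1 such stretch of 15 of the 29 listed genes that were matched (51.7%) and of 3410 of all 27025 genes (12.6%). The list was drawn up from genes known to respond to hypoxia, so this share describes the list and not its change.

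Of 27 vessel genes tested, 2 had a lower late change in AKR/J (0.655% of all genes tested were lower) and the other 25 did not pass. The called genes were Flt1 and Kdr, the receptors of vascular endothelial growth factor on endothelial cells, and the list's median difference was -0.63. With 1 library left out, the list held 0 to 7 called genes, and 0 without AKR/J d17 replicate 2 or 3, Cav1-null d15 replicate 2 or 3, or Cav1-null d17 replicate 2. Flt1 was at 11.2 to 15.8 CPM in all 6 AKR/J libraries, while in Cav1-null it went from 10.3, 9.63 and 6.67 CPM to 21.8, 24.8 and 17.9 CPM (difference -1.34, SE 0.25, adjusted p = 0.0239). Kdr went from 20, 25.5 and 29.7 CPM to 16.6, 12.3 and 14 CPM in AKR/J and was at 14.8 to 22.4 CPM in Cav1-null (difference -1.06, SE 0.23). Kdr fell in AKR/J, and Flt1 rose in Cav1-null. Without AKR/J d15 replicate 2, which held connective tissue RNA, Flt1 had a difference of -1.38 and Kdr of -1.04, and both passed the test. Kdr passed in 3 of the 12 fits with 1 library left out, and its call was lost with the trend of length and GC content removed (-0.89, adjusted p = 0.0569). Of the caveolar genes, which vessels also express, 0 of 7 passed, with Cavin1, which coats caveolae, at -1.28 and Cav2 at 0.36. Cavin1 was at 44.8 CPM in AKR/J d15 replicate 2 and at 7.14 to 11.9 CPM in the other 11 libraries.

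Of 29 genes of radial glia, 23 fell and 1 rose in AKR/J (14.1% and 13.7% over all genes), and 16 fell and 0 rose in Cav1-null (9.73% and 10.1%). The median difference was -0.54, and 2 genes passed the test, both lower in AKR/J (0.655% over all genes). The count of lower genes was 6 without AKR/J d17 replicate 1, 5 without AKR/J d15 replicate 2 and 0 without AKR/J d17 replicate 2 or 3, Cav1-null d15 replicate 2 or 3, or Cav1-null d17 replicate 2. The median was -0.34 without AKR/J d15 replicate 3 and -0.32 with the trend of length and GC content removed, where 1 gene was called. Ccnd1, the cyclin that drives progenitors into the cell cycle (chromosome 7, 144483668 to 144493662), was at 46.6, 66.7 and 75.2 CPM in AKR/J on d15 and at 23.7, 15.8 and 17.7 CPM on d17. In Cav1-null, Ccnd1 was already at 24.3, 21.1 and 18.3 CPM on d15 and was at 17.3, 17 and 17.7 CPM on d17. The AKR/J libraries of d15 were above all of the other 9 (difference -1.42, SE 0.25, adjusted p = 0.0225). Notch2, a receptor that keeps progenitors from turning into neurons, had a smaller difference in the same direction (-0.66, SE 0.14, adjusted p = 0.0328), and this call was lost when the trend with transcript length and GC content was removed (-0.39, adjusted p = 0.162).

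Genes of cell division fell in both strains (14.1% of all genes tested fell in AKR/J and 9.73% in Cav1-null). All 40 genes of the mitosis list fell in AKR/J and all 40 fell in Cav1-null, with median changes of -1.25 and -1.15, and 0 of 40 passed the test of the difference, which had a median of -0.18. Without AKR/J d17 replicate 1, 6 were lower and the median was -0.35, and 0 passed in the other fits with 1 library left out. The lowest values were those of Plk1 (-0.66, SE 0.25, adjusted p = 0.152) and Anln (-0.63, SE 0.18, adjusted p = 0.0771). Of 40 genes of DNA replication, 36 fell in AKR/J and 35 in Cav1-null, while 3 differed, 1 higher and 2 lower (1.48% and 0.655% over all genes). These counts were 0 to 1 and 0 to 10 with 1 library left out. Uhrf1, which recruits the maintenance methyltransferase to new DNA, went from 44.9, 53.3 and 56.7 CPM to 19.5, 14.2 and 12.7 CPM in AKR/J and from 23.5, 25.4 and 22.8 CPM to 12.4, 12 and 14.1 CPM in Cav1-null (difference -0.85, SE 0.2, adjusted p = 0.047). It fell in both strains, further in AKR/J. Lig1, the ligase of Okazaki fragments, had a difference of -0.60 and Orc6, a subunit of the origin recognition complex, of 0.60. Among proneural genes and intermediate progenitors, 14 of 22 fell in AKR/J and 19 in Cav1-null, and Elavl2, an RNA-binding protein of young neurons, was the 1 called gene (0.52, SE 0.12, adjusted p = 0.0403). This call was lost with the trend of length and GC content removed (0.30, adjusted p = 0.244).

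Several neuronal genes and noncoding RNAs rose more in AKR/J, from a lower level on d15. The long noncoding RNA 9130024F11Rik went from 9.98, 5.79 and 4.19 CPM to 34.8, 32.5 and 24.1 CPM in AKR/J and was at 19.4 to 30.9 CPM in Cav1-null (difference 2.36, SE 0.35, adjusted p = 0.013). The AKR/J libraries of d15 were below all of the other 9. As strand-specific counting is not stated in the sources used here, reads of genes that overlap on opposite strands could have been counted for either gene.

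Of the 30 listed genes of projection neurons, 2 had a higher change in AKR/J, among them the layer 4 receptor Rorb (0.63, SE 0.14), and 1 a lower one (1.48% and 0.655% over all genes). The counts ran from 0 to 8 and from 0 to 1 with 1 library left out. The median difference of this list was 0.02, with 17 of 30 genes above 0. The gene with the lower change was Dkk3, a secreted glycoprotein related to Wnt inhibitors, which was at 14.9, 31.1 and 19.8 CPM on d15 and 14 to 17.2 CPM on d17 in AKR/J, and at 8.59 to 12.3 CPM and 18.3 to 24.8 CPM in Cav1-null (difference -1.55, SE 0.32, adjusted p = 0.0293). The highest of the AKR/J values of d15 came from replicate 2, and without it the difference was -1.21 (adjusted p = 0.023). Drd1, the dopamine receptor of striatal neurons, was the 1 higher gene of 30 listed for GABAergic neurons (1.48% over all genes). It was at 1.78 to 2.11 CPM in AKR/J on d15 and at 5.05 to 8.84 CPM in the other 9 libraries (difference 1.29, SE 0.27, adjusted p = 0.0327). The median difference of the GABAergic list was -0.04, with 13 of 30 genes above 0.

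Most listed receptor genes for GABA and glutamate rose in both strains (13.7% of all genes tested rose in AKR/J and 10.1% in Cav1-null). In the list of GABA-A receptors and chloride transporters, 16 of 20 genes rose in AKR/J and 16 in Cav1-null, and 3 subunits had a higher change in AKR/J (1.48% over all genes): Gabrg1, Gabra5 (0.73, SE 0.16) and Gabrb1 (0.57, SE 0.13). None of the list passed with the replicate block or without any 1 of AKR/J d17 replicates 2 and 3, the Cav1-null libraries of d15, and Cav1-null d17 replicates 2 and 3. Gabrg1 went from 11.7, 12.4 and 9.56 CPM to 39.7, 52.8 and 54.3 CPM in AKR/J and from 26.4, 25.2 and 34.1 CPM to 66.5, 65.5 and 56.8 CPM in Cav1-null (difference 0.99, SE 0.2, adjusted p = 0.0314). AKR/J remained below Cav1-null on d17 in this gene. The median difference of the GABA-A list was 0.29, with 15 of 20 genes above 0. Of 44 genes of glutamate receptors and the postsynaptic density, 31 rose in AKR/J and 31 in Cav1-null, and 2 differed, both higher in AKR/J (1.48% over all genes, and 0 to 4 of the list with 1 library left out). The median difference of this list was -0.02, with 21 of 44 genes above 0. Gria2, the subunit that makes AMPA receptors impermeable to calcium, was at 936, 686 and 700 CPM in AKR/J on d15 and at 1240 to 1580 CPM in the other 9 libraries (difference 0.94, SE 0.17, adjusted p = 0.0226), while the scaffold gene Dlg2 rose in both strains (difference 0.55, SE 0.11).

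For the release machinery of synapses, 21 of 40 genes rose in AKR/J and 28 in Cav1-null, and 1 gene differed in each direction (1.48% higher and 0.655% lower over all genes). Leaving out 1 library gave 0 to 2 higher and 0 to 1 lower. The median difference of this list was -0.13, with 17 of 40 genes above 0. Bsn, the scaffold of the active zone, had a difference of -0.64 (SE 0.14, adjusted p = 0.0334) that did not pass with the trend of length and GC content removed (-0.31, adjusted p = 0.163). Of 41 voltage-gated channels, 25 rose in AKR/J, 26 rose in Cav1-null and 0 differed, with Kcnq5 at 0.78 (adjusted p = 0.0659). Of the channels, 4 were higher without AKR/J d15 replicate 1, 2 without AKR/J d17 replicate 1 and 2 with the trend of length and GC content removed. The neuropeptide list held 1 gene that passed of 23, a higher one (1.48% over all genes). This was Tac2, which codes for neurokinin B, at 0.0333, 0.0658 and 0.201 CPM in AKR/J on d15 and at 1.2, 1.54 and 1.35 CPM on d17, against 0.473 to 1.38 CPM in Cav1-null on both days (difference 4.23, SE 0.68, adjusted p = 0.0164). Its AKR/J values of d15 rest on a handful of reads.

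**Figure D3:**
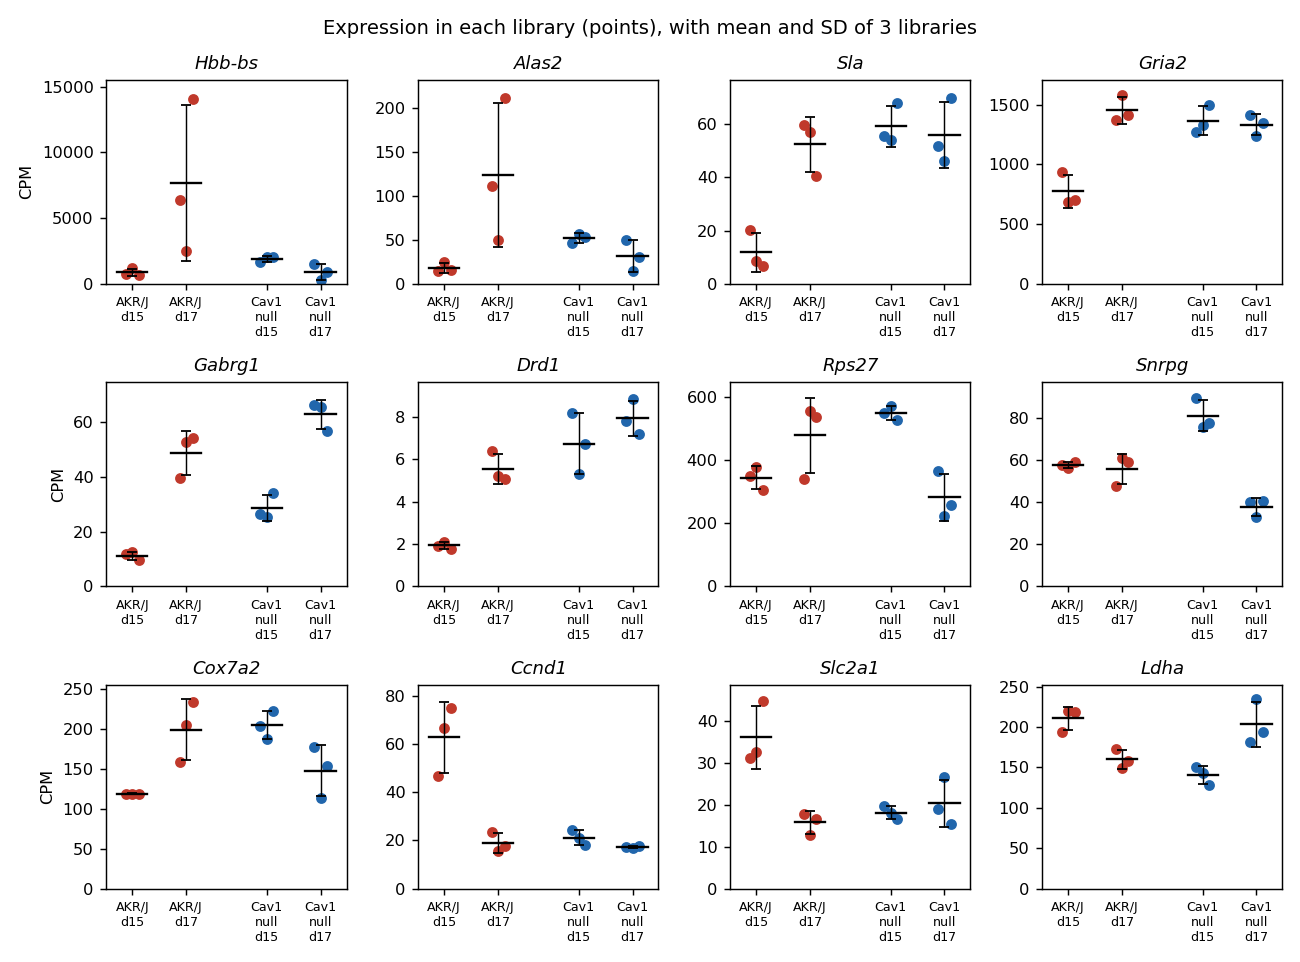
CPM of 12 genes in each library (points, red for AKR/J and blue for Cav1-null), with the mean of the 3 libraries of a group as a bar and the SD as whiskers, on axes that start at 0. In Sla, Gria2, Gabrg1, Drd1, Ccnd1 and Slc2a1 the AKR/J libraries of d15 stand apart from the other groups, while Snrpg differs through its fall in Cav1-null, from 75.9 or more to 40.4 CPM or less.

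Some genes of the ribosome, spliceosome, respiratory chain and proteasome were among those with a higher change in AKR/J. The 3 lists of ribosomal proteins, proteasome subunits and snoRNA host genes were drawn up after their values had been seen, so their counts are a description. Of 83 ribosomal protein genes, 23 had a higher change in AKR/J (1.48% over all genes) and 0 a lower one, with a median difference of 0.66. The count was 1 with the replicate block. It was 60 without AKR/J d17 replicate 1, 47 without Cav1-null d17 replicate 1, 39 without AKR/J d15 replicate 2, 10 without AKR/J d15 replicate 3, and 0 to 3 without any 1 of AKR/J d17 replicates 2 and 3, the Cav1-null libraries of d15, and Cav1-null d17 replicates 2 and 3. In Cav1-null, 61 fell and 0 rose (9.73% and 10.1% over all genes), and in AKR/J, 7 rose and 1 fell (13.7% and 14.1%). Rps27 was at 349, 378 and 304 CPM in AKR/J on d15 and at 341, 556 and 535 CPM on d17, against 550, 571 and 525 CPM and 366, 222 and 257 CPM in Cav1-null (difference 1.43, SE 0.26, adjusted p = 0.0233). AKR/J d17 replicate 1 was thus at the level of d15, and the Cav1-null libraries of d15 and d17 did not overlap. Rpl39 (1.55, SE 0.28), Rpl38 (1.47, SE 0.33) and Rps21 (1.26, SE 0.25) had the other large differences. Ribosomal protein genes have many pseudogene copies, and how the authors' counting treated reads that match several copies is not given in the sources used here.

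Of 51 spliceosome genes, 8 had a higher change in AKR/J (1.48% over all genes) and 0 a lower one, although the median of the list was 0.05. With 1 library left out, 0 to 10 were higher. The count was 0 without Cav1-null d15 replicate 3, 1 without AKR/J d17 replicate 2 or 3 or Cav1-null d15 replicate 2, 3 to 5 without AKR/J d15 replicate 3, Cav1-null d15 replicate 1 or Cav1-null d17 replicate 2 or 3, and 3 with the replicate block. They code for small proteins: the Sm ring members Snrpg, Snrpe, Snrpd1 (0.77) and Snrpd2 (0.72), the Sm-like Lsm5 (0.94) and Lsm3 (0.82), the U2 protein Snrpb2 (0.61) and the branch point protein Sf3b6 (0.80). Snrpg was at 57.7, 56 and 59.2 CPM in AKR/J on d15 and at 47.6, 60.8 and 59.1 CPM on d17, while in Cav1-null it went from 89.6, 75.9 and 77.8 CPM to 40.2, 32.9 and 40.4 CPM (difference 1.05, SE 0.15, adjusted p = 0.013). Snrpe followed the same course (1.05, SE 0.17, adjusted p = 0.0162). For all 8, the change in AKR/J was between -0.05 and 0.23 and did not pass the test for the 4 genes with the largest differences. In the whole list, 28 of 51 fell and 0 rose in AKR/J (median -0.30), and 30 fell and 0 rose in Cav1-null (median -0.33). Over all genes, 14.1% fell in AKR/J and 9.73% in Cav1-null. With the trend of length and GC content removed, 4 genes of the list passed, and Lsm5 was at 0.32 (adjusted p = 0.311).

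In the respiratory chain, 13 of 46 nuclear subunits had a higher change in AKR/J (1.48% over all genes) and 0 a lower one, with a median difference of 0.36. The count was 20 without AKR/J d17 replicate 1, 7 without AKR/J d15 replicate 3, 0 without AKR/J d17 replicate 2 or 3 or any 1 of the Cav1-null libraries of d15, 1 and 2 without Cav1-null d17 replicates 2 and 3, and 1 with the replicate block. Here 16 rose and 2 fell in AKR/J (13.7% and 14.1% over all genes), and 0 rose and 8 fell in Cav1-null (10.1% and 9.73%). Cox7a2, a subunit of cytochrome c oxidase, went from 119, 119 and 118 CPM to 159, 205 and 234 CPM in AKR/J and from 204, 188 and 223 CPM to 177, 113 and 154 CPM in Cav1-null (difference 1.22, SE 0.21, adjusted p = 0.0224). The groups of d15 and d17 did not overlap in either strain, and their order was opposite. Cox7c (1.15, SE 0.23) and Cox6c (1.09, SE 0.2) of the same complex and Ndufb9 (0.96, SE 0.18) of complex I were the next. Of 38 proteasome genes, 9 had a higher change in AKR/J (1.48% over all genes, and 0 to 11 of the list with 1 library left out and 0 with the replicate block) and 0 a lower one, all with small differences such as those of Psma4 (0.61, SE 0.13), Psmd10 (0.61, SE 0.13), Psma2 (0.60, SE 0.11) and Psmb1 (0.60, SE 0.1). The median of the list was 0.21. With the trend of length and GC content removed, Psmd10 was at 0.29 (adjusted p = 0.264). Of 15 snoRNA host genes, 4 had a higher change in AKR/J (1.48% over all genes, and 0 to 7 of the list with 1 library left out and 1 with the replicate block), namely Snhg11 (1.05, SE 0.2), Gas5 (0.89, SE 0.15), Snhg12 (0.85, SE 0.16) and Snhg5 (0.78, SE 0.1). Nop10, a small protein of the snoRNPs that modify ribosomal RNA, was the 1 called gene of 54 in ribosome biogenesis (0.80, SE 0.18). This was near the share of 1.48% over all genes.

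Transcript length moved with these results. The canonical transcripts of the genes with a higher change in AKR/J had a median length of 1957 bases and a GC content of 46.8%, those of the genes with a lower change 5311 bases and 52.1%, and those of all genes tested 2795 bases and 49.4%. Genes whose log2 CPM averaged 3 or more were split by length into 10 bins. Their median difference was 0.30 in the shortest bin (67 to 1469 bases) and -0.13 in the longest bin. The median change in Cav1-null rose over these bins from -0.24 to 0.11, while that in AKR/J was 0.09 in the shortest bin and between -0.08 and -0.02 in the others. A score of each library, the median deviation of transcripts under 1000 bases minus that of transcripts over 5000 bases on the log2 scale, was -0.22 to -0.05 in AKR/J on d15, -0.10, 0.17 and 0.24 on d17, 0.16 to 0.22 in Cav1-null on d15 and -0.32 to -0.04 on d17. AKR/J d17 replicate 1, in which Rps27 and Rpl38 stayed at their levels of d15, had the value of -0.10. When the trend of each library with length and GC content was removed, an alternative chosen after seeing the data, 250 genes were called, 189 higher and 61 lower, and 196 of them were among the 462. The ribosomal protein list then had 10 called genes and a median of 0.50, the respiratory chain 4 and 0.26, the spliceosome 4 and 0.04, the proteasome 3 and 0.08, and hypoxia and glycolysis 6 and -0.53. Of the 64 called genes named by the rule given below, Rpl38, Cox7c, Nop10, Lsm5, Psmd10, Elavl2, Orc6, Ttr, Notch2, Bsn, Kdr, Axl, Lcp1, Spsb4, Uhrf1 and Lig1 were no longer called, at adjusted p-values of 0.0513 to 0.311. Called genes given only as further members of a list, such as Gpi1 and Snrpd1, are not part of this count. The part of fragment length or RNA quality in the results was not tested.

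**Figure D4:**
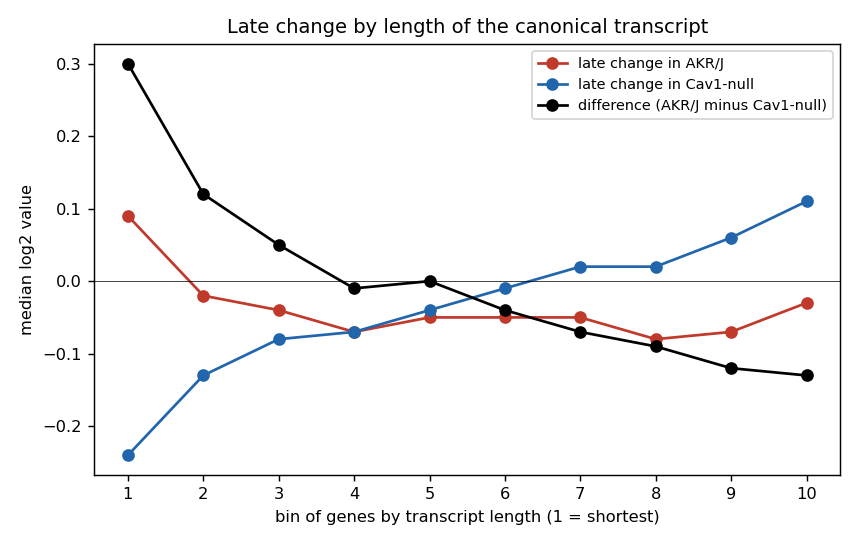
Median late change in AKR/J (red), in Cav1-null (blue) and their difference (black), on the log2 scale, over 10 bins of genes by the length of the canonical transcript. The difference goes from 0.30 in the shortest bin to -0.13 in the longest, and the line of Cav1-null rises from -0.24 to 0.11.

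Among genes named by the size of their difference alone, several others rose in AKR/J from a low level on d15. Sla, an adaptor that dampens antigen receptor signalling, was at 20.3, 8.59 and 6.67 CPM in AKR/J on d15 and at 40.5 to 69.8 CPM in the other 9 libraries (difference 2.22, SE 0.42, adjusted p = 0.0252). Car8, a carbonic anhydrase-related protein without enzyme activity that is typical of Purkinje cells, rose in both strains, from 3.93, 3.42 and 2.99 CPM to 19.7, 26.3 and 32.4 CPM in AKR/J and from 17, 19.1 and 14.9 CPM to 40.4, 42.7 and 38.6 CPM in Cav1-null (difference 1.66, SE 0.23, adjusted p = 0.013). Gipr, the receptor of glucose-dependent insulinotropic peptide, was at 9.69 to 19.5 CPM in AKR/J on d15 and at 40.3 to 57.8 CPM in the other 9 libraries (1.42, SE 0.26). Pcp4, a small regulator of calmodulin, was at 2.96 to 4.76 CPM in AKR/J on d15 and at 8 to 11.8 CPM elsewhere (1.45, SE 0.28). Krt1, a keratin of the epidermis, was at 5.16 to 5.7 CPM in AKR/J on d15 and at 11 to 19.1 CPM elsewhere (1.48, SE 0.3). It was the 1 higher gene among 16 of epidermis and eye (1.48% over all genes). The noncoding RNA B230209E15Rik rose in both strains, from 3.96 to 8.92 CPM up to 24.8 to 37.1 CPM in AKR/J and from 24.3 to 26.6 CPM up to 43 to 44.9 CPM in Cav1-null (1.53, SE 0.29). In Sla, Gipr, Pcp4 and Krt1 the 3 AKR/J libraries of d15 were below all of the other 9.

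The other genes with a large lower change were Notch3, Smad3, Il17rd, Axl, Lcp1, Spsb4, Plec and Eif2ak2. Notch3, a Notch receptor of progenitors and pericytes, went from 52.2, 57.8 and 59.4 CPM to 35.5, 26.5 and 32.1 CPM in AKR/J and was at 21.9 to 44.1 CPM in Cav1-null (difference -1.24, SE 0.22, adjusted p = 0.0226). Smad3, which carries signals of TGF-beta and activin, was at 19.2 to 31.8 CPM in AKR/J on d15 and at 10.5 to 13.7 CPM elsewhere (-1.27, SE 0.25). Il17rd, a brake on FGF signalling, was at 15.9 to 26.7 CPM in AKR/J on d15 and at 9.38 to 13.7 CPM elsewhere (-1.30, SE 0.23). Axl, a receptor of Gas6, was at 22.7, 42.6 and 23.2 CPM in AKR/J on d15, with the highest value in replicate 2, and at 10.8 to 15.1 CPM elsewhere (-1.24, SE 0.29, and -0.87 without that replicate, adjusted p = 0.0299).

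Lcp1, an actin-bundling protein of leukocytes, was at 12.3 to 16 CPM in AKR/J on d15 and at 3.4 to 8.26 CPM elsewhere (-1.43, SE 0.32), and Spsb4, a subunit of ubiquitin ligases, at 12.5 to 19.4 CPM and 5.31 to 9.37 CPM (-1.29, SE 0.3). Jun, the immediate early factor, was at 33.7, 35.7 and 45 CPM in AKR/J on d15 and at 17.3 to 21.8 CPM elsewhere (-0.96, SE 0.17, adjusted p = 0.0233). It was the 1 lower gene of 22 in its list (0.655% over all genes). In Notch3, Smad3, Il17rd, Axl, Lcp1, Spsb4 and Jun the AKR/J libraries of d15 were above all of the other 9. Another pair rose in Cav1-null: Plec, which links intermediate filaments, from 31.9 to 44 CPM up to 62.9 to 87.2 CPM (-1.24, SE 0.22), and Eif2ak2, the kinase PKR that senses double-stranded RNA, from 6.69 to 8.22 CPM up to 9.9 to 13.2 CPM (-1.33, SE 0.25), while it fell in AKR/J.

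Other cell types of the brain gave few calls. Over all genes tested, 13.7% rose in AKR/J and 10.1% in Cav1-null, and 1.48% were higher and 0.655% lower in the interaction. Each list with 1 called gene held 0 to 2 when 1 library was left out. Of 39 astrocyte genes, 22 rose in AKR/J and 21 in Cav1-null, and 0 differed, with Agt, which codes for angiotensinogen, at 2.32 to 3.02 CPM on d17 in Cav1-null, against 0.309 to 0.427 CPM on d17 in AKR/J (difference -2.10, SE 0.64, adjusted p = 0.0885). Of the astrocyte genes, 5 were lower without AKR/J d15 replicate 2, 2 were higher and 3 lower without AKR/J d15 replicate 1, and 1 or more passed without AKR/J d15 replicate 3 or AKR/J d17 replicate 1. In the oligodendrocyte lineage, 9 of 26 rose in AKR/J, 9 rose in Cav1-null and 0 differed, while 2 were lower without AKR/J d15 replicate 1. Aif1, a marker of microglia, rose in AKR/J from 2.55 to 3.89 CPM up to 7.1 to 9.43 CPM and was at 2.21 to 3.44 CPM in Cav1-null (difference 1.47, SE 0.31, adjusted p = 0.0331). The other 21 genes of the microglia list did not pass, and the list's median was -0.01. Ttr, which the choroid plexus secretes as the carrier of thyroid hormone, rose in AKR/J from 267 to 368 CPM up to 498 to 534 CPM and was at 305 to 468 CPM in Cav1-null (difference 0.91, SE 0.17, adjusted p = 0.0252), and was the called gene of 20 in its list. With the trend of length and GC content removed, Ttr was at 0.65 (adjusted p = 0.103).

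Lists of connective tissue, muscle, pituitary and placenta held no called gene, and their medians moved with single libraries. The median difference was -2.03 over 24 genes of connective tissue and cartilage, and 0 passed, while 7 were lower without AKR/J d15 replicate 1 and 2 without AKR/J d15 replicate 3. Ibsp, the bone sialoprotein, was at 64.7 CPM in AKR/J d15 replicate 2 and at 0.0728 to 5.52 CPM in the other 11 libraries. Without that library the median difference was -0.21. For skeletal muscle the median of 17 genes was -0.99, and 0.91 without the library, where 1 gene was higher. The median was -0.91 over 5 pituitary genes, and -1.04 to -0.01 with 1 library left out, the latter without Cav1-null d17 replicate 1. Over 12 genes of placenta and yolk sac it was 1.21, and 0.37 to 1.04 with 1 library left out, the lowest without Cav1-null d15 replicate 3. For 36 genes of midbrain and hindbrain it was -0.62, with 0 called genes. This median was -0.98 to 0.21 with 1 library left out, its sign turned without AKR/J d15 replicate 3, and 1 gene was lower without AKR/J d15 replicate 1 or 2. Cholesterol synthesis (25 genes, median -0.20) and the stress response (26 genes, median -0.21) held 0 called genes. The cholesterol median was -0.11 without AKR/J d15 replicate 3 and that of the stress response -0.12 without Cav1-null d15 replicate 3. In cholesterol synthesis 1 gene passed without AKR/J d15 replicate 1 or 2 or AKR/J d17 replicate 1, and in the stress response 2 were lower without AKR/J d15 replicate 2 and 1 without AKR/J d17 replicate 1.

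**Figure D5:**
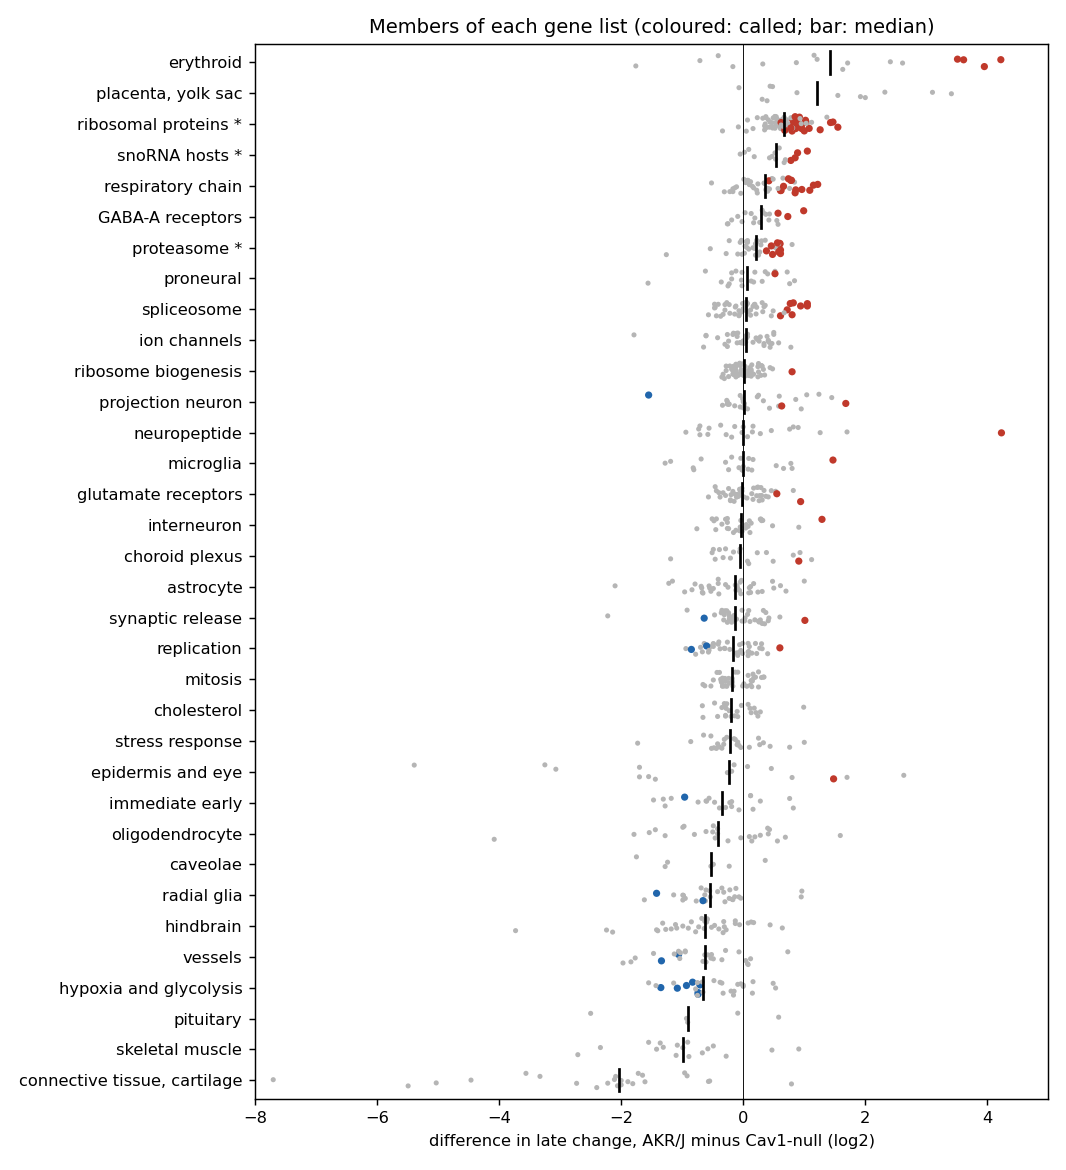
Difference in late change (AKR/J minus Cav1-null, log2) of each tested member of the gene lists, with called members in red (higher) or blue (lower), other members in grey and the median of the list as a bar. Lists marked * were drawn up after their values had been seen. The medians run from -2.03 for connective tissue and cartilage to 1.42 for erythroid genes, and called members of hypoxia and glycolysis lie below 0 while those of the ribosome and respiratory chain lie above it.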

How the data were processed

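The authors made poly-A libraries from whole fetal brains. They checked reads with FastQC, trimmed them with cutadapt and fastp and mapped them to GRCm39 with STAR, and edgeR and bedtools are also named in their processing notes. The deposited gene table holds raw read counts, with 1 row for each Ensembl gene and no normalization. The counting tool, its use of strand and of reads with several matches, and the versions are not given in the sources used here. Whether replicates came from separate litters is not stated, so p-values measure the spread between these libraries. The table of splice junctions was not used here.

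The labelled strain and day set the groups. The 12 libraries were fitted in R 4.3.3 with edgeR 4.0.16 (filterByExpr, TMM, 1 coefficient per group, glmQLFit and glmQLFTest), and both late changes were tested in the same fit. A gene was called when its Benjamini-Hochberg adjusted p was under 0.05. The SE is the absolute log2 value over the square root of F. Lengths and coordinates came from GENCODE M39, with an entry for 21510 tested genes. Promoter stretches came from RefSeq.

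The genes named were the 12 with the largest difference in each direction among called genes whose log2 CPM averaged 3 or more, the 2 leading clone-named genes of that level, up to 4 called members of each gene list (or the leading members where fewer passed), and Cav1, Cav2 and Cavin1. A few genes that this rule names are not reported here. Hba-a1, Hba-a2, Hbb-y and some list members were named after their values were seen. The comparison, the 31 gene lists (929 of 930 genes matched) and the 3 later lists were chosen with earlier results of these data known. On simulated counts with 200 changed genes, 64% of those with a planted log2 difference of 1 and 93% of those with 2 were recovered, with 4.27% false calls. These counts were drawn gene by gene, without the deviations that genes of a real library share. The shares therefore need not hold for the real libraries. Alternatives were DESeq2 1.42.0, the likelihood ratio test, other scalings and filters, all 27 libraries, a fold threshold, a replicate block, erythroid genes left out and each library left out. Depth was 26363697 to 30160663 reads.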

Additional observations from a re-analysis of the deposited data

Results flagged for a closer look

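A difference in late change between the strains, found by the test of the interaction, was present in 462 genes. The 64 of them that the naming rule gave are listed here. For genes of red blood cells it was 4.22 in Hbb-bs, 3.95 in Hbb-bt and 3.51 in Alas2, on the log2 scale as for all values here. For neuronal genes and their receptors it was 0.52 in Elavl2, 0.63 in Rorb, 1.29 in Drd1, 0.94 in Gria2, 0.55 in Dlg2, 0.99 in Gabrg1, 0.73 in Gabra5, 0.57 in Gabrb1 and 4.23 in Tac2, while it was -1.55 in Dkk3 and -0.64 in Bsn. Other genes with a higher change in AKR/J were the noncoding RNAs 9130024F11Rik (2.36) and B230209E15Rik (1.53), Sla (2.22), Car8 (1.66), Krt1 (1.48), Pcp4 (1.45), Gipr (1.42), Ttr (0.91), Aif1 (1.47) and Orc6 (0.60).

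In the ribosome, spliceosome, respiratory chain, proteasome and snoRNA hosts, the difference was 1.55 in Rpl39, 1.47 in Rpl38, 1.43 in Rps27, 1.26 in Rps21, 0.80 in Nop10, 1.05 in Snrpg, 1.05 in Snrpe, 0.94 in Lsm5, 0.82 in Lsm3, 1.22 in Cox7a2, 1.15 in Cox7c, 1.09 in Cox6c, 0.96 in Ndufb9, 0.61 in Psma4, 0.61 in Psmd10, 0.60 in Psma2, 0.60 in Psmb1, 1.05 in Snhg11, 0.89 in Gas5, 0.85 in Snhg12 and 0.78 in Snhg5. Lower changes in AKR/J were -1.43 in Lcp1, -1.42 in Ccnd1, -1.35 in Slc2a1, -1.34 in Flt1, -1.33 in Eif2ak2, -1.30 in Il17rd, -1.29 in Spsb4, -1.27 in Smad3, -1.24 in Plec, -1.24 in Axl, -1.24 in Notch3, -0.85 in Uhrf1, -0.60 in Lig1, -0.66 in Notch2, -1.08 in Eno1, -0.93 in Ldha, -0.83 in Pgk1, -0.96 in Jun and -1.06 in Kdr.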

How the results depend on the processing

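The 462 genes called kept their direction in every alternative in which they were tested, except 1 gene with the trend of length and GC content removed. They were selected by this difference in the same libraries, so a kept direction could hardly fail and is no measure of stability. The number of calls moved widely. It was 1825 with DESeq2's Wald test, 1397 with the likelihood ratio test, 1997 with no filter on low counts (1063 higher and 934 lower), 811 with at least 10 reads in every library, 115 with an absolute log2 value of at least 1, 250 with the trend of length and GC content removed, and 0 with 1 model of all 27 libraries. With 1 library left out it was 0 to 1130. Other scalings gave 479 to 501 calls. Late changes in AKR/J counted 6007 genes, and 2366 in the model of all 27 libraries, 1621 with an absolute log2 value of at least 1, and 3879 to 6001 with 1 library left out. Late changes in Cav1-null counted 4304 genes, and 829, 786 and 2702 to 5119 in the same alternatives. The cause of these shifts was not tested. Labels number the replicates of each group alike, but libraries of the same number did not deviate together (correlations of -0.108 to 0.135 over 18 pairs, 1 over 0.1). With a replicate block, 34 genes passed in the interaction, all among the 462, and 5345 and 3571 passed in AKR/J and Cav1-null. Of the 64 called genes named by the rule, 9 passed with the block, 48 with the trend of length and GC content removed, and each in 2 to 11 of the 12 fits with 1 library left out. With 3 libraries a group, differences of 1 on the log2 scale were recovered in 64% of cases simulated without deviations shared across a library.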

Other observations

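In lists with fewer than 2 called genes, the members with the largest absolute difference that were not given above did not pass the test. They included Olig3 (-1.56) and Atoh1 (0.84) among proneural genes, Gsx2 (0.91) and Slc32a1 (-0.76) in GABAergic neurons, S100b (-1.22) among astrocyte genes, Matn4 (-4.08) and Fa2h (-1.79) in the oligodendrocyte lineage, Mphosph10 (0.48) and Imp3 (0.44) in ribosome biogenesis, Srebf2 (-0.67) in cholesterol metabolism, Hspa1b (-1.73) and Chac1 (1.00) in the stress response, and Aqp1 (-1.19) and Tmem72 (1.12) in the choroid plexus. Tmem72 was at 14.2 to 15.8 CPM in AKR/J on d17, above the other 9 libraries of the 4 groups. In the immediate early list Atf3 was at -1.47 and Junb at -1.31, and among microglia genes Itgam was at -1.28 and Tmem119 at -1.19. The differences were -2.50 in Pitx1 (pituitary), 1.70 in Avp and 1.26 in Oxt (neuropeptides), -1.79 in Scn4b (channels), -2.71 in Myl1 and -2.34 in Tnni2 (muscle), -3.25 in Crybb1 (lens), 3.41 in Tpbpa and 3.10 in Apob (placenta and yolk sac), -2.24 in Wnt1 (midbrain) and -5.49 in Hapln1 (cartilage), most of which are low in the brain. Crx, a gene of photoreceptors, was at 0 to 0.856 CPM in all 12 libraries. Several of these values rest on AKR/J d15 replicate 2. Without it the sign turned in S100b (0.71), Matn4 (0.20), Tmem119 (0.44), Myl1 (2.52), Tnni2 (0.12) and Crybb1 (0.27), and the difference was -0.62 in Fa2h, -0.94 in Atf3, -0.16 in Aqp1, -0.61 in Pitx1, -0.82 in Scn4b and -0.91 in Hapln1. Tpbpa was at 1.09 without Cav1-null d15 replicate 3. Matn4 was at 35.8 CPM in AKR/J d15 replicate 2, the library that held connective tissue RNA, and at 0.399 to 3.02 CPM in the other 11 libraries. Hoxb8, a gene of the hindbrain and spinal cord, was at 13 CPM in AKR/J d15 replicate 3, 9.43 CPM in AKR/J d17 replicate 3 and 2.88 CPM in Cav1-null d17 replicate 1, and at 0 to 0.463 CPM in the other 9 libraries.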
